A study of Mus musculus with 20 samples.

Results

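Osteocytes are the cells buried in mineralized bone. The 7 genes described here (Sost, Dmp1, Mepe, Phex, Fgf23, Pdpn and Fam20c) were chosen by name as genes that osteocytes are known for, and all 7 were found among the 54446 genes of the deposited count table. They were measured by total RNA-seq in 20 mouse tibiae, with 5 libraries in each of 4 groups. All mice were 3-month-old male C57BL/6J, and none carried a transgene or deletion that the labels name. Vehicle_Ctrl and Vehicle_Load came from mice given water under the skin for 5 days, and DEX_Ctrl and DEX_Load from mice given the synthetic glucocorticoid dexamethasone (DEX) at 1 mg/kg. In the Load groups the left tibia was compressed along its axis at -13 N for 40 cycles a session, each force held for 0.1 s with 10 s of rest, and the Ctrl groups were not loaded. The labels place the sessions on day 1 and day 3, the methods give 2 to 3 sessions a week, and the description of this experiment gives 3 a week with collection on day 5, 4 h after the last. The unloaded bone is the opposite limb of a treated mouse, so it shared the drug and the circulation with the loaded one.

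The methods describe frozen bone that was powdered and RNA taken from tibiae, while the paper elsewhere calls the mouse material cortical bone with periosteum. Genes of marrow, cartilage, muscle and tendon were read in every group, so the RNA did not come from bone cells alone. A lower value can mean fewer osteocytes or less RNA per osteocyte, and the libraries cannot tell these apart. Nothing in the labels says which libraries share a mouse, so p-values measure the spread between these libraries. Expected counts per library totalled 4641437 to 13032018. Reads over 1731 olfactory and vomeronasal receptor genes, which bone is not known to use, served as a measure of stray signal, and they made up 227.7 to 1238 counts per 1000000 (CPM) in vehicle libraries and 788.6 to 8611 in DEX libraries. DEX_Load replicate 4 stood apart with the lowest total and the highest stray signal. DEX_Ctrl replicate 4 was left out of every test below, because the study's text removes a library called DEX-4 and plots 4 unloaded DEX values. Levels are given for all 5 libraries of each group. Of 5 glucocorticoid-induced genes taken as a check of the treatment, Fkbp5 (log2 fold change 0.87, adjusted p = 0.00777) and Zbtb16 (1.015, adjusted p = 0.0093) were higher in DEX_Load than in Vehicle_Load by edgeR's quasi-likelihood test. In unloaded bone none was called higher (Fkbp5 had 0.81, SE 0.236, adjusted p = 0.0603, and Zbtb16 had -0.074) and Sgk1 was lower (-0.63, adjusted p = 0.0318). The log2 fold change was below 0 for 2 of the 5 in loaded and 4 of the 5 in unloaded bone. Levels in Vehicle_Load and DEX_Load overlapped for Per1 (47.9 to 108 and 32.3 to 64.0 CPM) and Tsc22d3 (68.1 to 119 and 46.8 to 120 CPM). With the stray signal as a covariate none of the 5 was called in loaded bone, and 1 was higher and 1 lower in unloaded bone.

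Osteocytes arise from osteoblasts that become enclosed in the matrix they lay down, and they stay joined to one another by long dendrites. Through these they are thought to sense strain and, in response, to set the pace of bone formation and resorption by secreted signals. Sclerostin, the product of Sost, is the best known of these signals and blocks Wnt signaling by binding the co-receptors Lrp5 and Lrp6. The same cells act as an endocrine organ for phosphate, with Fgf23 as the hormone and Phex and Dmp1 as proteins whose loss raises it.

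The upstream sequences of 4 members are shown because 3 of them (Dmp1, Phex and Pdpn) were lower under DEX in both limbs and the other (Fgf23) had the only positive log2 fold change in loaded bone, at low counts and with a call that was lost without DEX_Load replicate 4 and with stray receptor signal as a covariate. Each is the RefSeq sequence from 250 to 31 bases before the transcription start, on build GRCm38.p6, written 5' to 3' on the gene's strand. Capitals mark matches, on either strand, to TGTTCT (a glucocorticoid receptor half-site), TGTGGT (a RUNX site) or CANNTG (an E-box). For Dmp1, which has 2 RefSeq starts, the window shown belongs to the start nearest to the annotated GENCODE gene.
Dmp1, chr5:104202367-104202586, plus strand: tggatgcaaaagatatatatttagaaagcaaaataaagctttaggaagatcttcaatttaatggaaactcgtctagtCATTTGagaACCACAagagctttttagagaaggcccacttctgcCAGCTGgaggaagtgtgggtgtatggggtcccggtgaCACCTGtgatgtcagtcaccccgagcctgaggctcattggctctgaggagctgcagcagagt
Phex, chrX:157415317-157415536, minus strand: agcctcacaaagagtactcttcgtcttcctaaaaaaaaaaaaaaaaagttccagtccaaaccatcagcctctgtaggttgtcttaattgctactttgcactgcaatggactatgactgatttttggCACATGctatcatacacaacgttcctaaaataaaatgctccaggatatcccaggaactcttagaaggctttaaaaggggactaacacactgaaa
Pdpn, chr4:143299595-143299814, minus strand: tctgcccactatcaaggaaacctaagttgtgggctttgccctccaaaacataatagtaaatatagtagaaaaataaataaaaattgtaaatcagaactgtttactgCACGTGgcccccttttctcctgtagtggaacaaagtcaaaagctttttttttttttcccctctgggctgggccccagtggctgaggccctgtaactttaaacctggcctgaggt
Fgf23, chr6:127072652-127072871, plus strand: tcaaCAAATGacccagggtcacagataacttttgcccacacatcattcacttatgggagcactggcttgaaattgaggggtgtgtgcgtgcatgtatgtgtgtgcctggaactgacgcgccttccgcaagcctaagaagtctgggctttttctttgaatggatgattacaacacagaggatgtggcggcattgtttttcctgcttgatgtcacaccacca

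All 7 members had an upstream sequence in the RefSeq table, giving 8 windows of 220 bases. The half-site TGTTCT was found in 1 of the 8, that of the more distant Dmp1 start, at positions -135 to -130, and in 14.4% of 32851 windows of all genes. A TGTGGT match lay in the Dmp1 window shown and at 2 places in that of Mepe, against 12.7% of all windows. CANNTG was present in every member's window apart from that of Fam20c and in 62.1% of all windows. The Fam20c window lies before its RefSeq start but overlaps a GENCODE exon, so it is not wholly upstream of the annotated gene. These matches are letters only and do not show that a factor binds there.

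In the count table the members are ENSMUSG00000001494.6 (Sost, chromosome 11, 101962458 to 101967015, minus strand), ENSMUSG00000029307.7 (Dmp1, chromosome 5, 104202613 to 104214102, plus strand), ENSMUSG00000053863.3 (Mepe, chromosome 5, 104325329 to 104338611, plus strand), ENSMUSG00000057457.11 (Phex, chromosome X, 157162075 to 157415312, minus strand), ENSMUSG00000000182.9 (Fgf23, chromosome 6, 127072902 to 127081408, plus strand), ENSMUSG00000028583.14 (Pdpn, chromosome 4, 143267431 to 143299564, minus strand) and ENSMUSG00000025854.15 (Fam20c, chromosome 5, 138754514 to 138810077, plus strand), in GENCODE M21 coordinates on GRCm38. Counts cover all exons of each gene, coding and untranslated. Dmp1 and Mepe lie in the same gene cluster on chromosome 5.

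Per kilobase of exon, the scale on which genes can be compared, the members fell into tiers. In Vehicle_Ctrl, Sost stood at 332 ± 67.0 CPM per kb (SD, n = 5), Dmp1 at 283 ± 63.2 and Mepe at 279.9 ± 63.8, and these 3 overlapped one another. Phex was next at 29.9 ± 5.60 CPM per kb and overlapped neither Mepe above nor Fam20c below. Fam20c at 9.89 ± 1.30 and Pdpn at 7.87 ± 1.36 CPM per kb overlapped, and Fgf23 was far below at 0.477 ± 0.184. The highest tier held the same 3 genes in the other groups. Pdpn was above Fam20c on average only in Vehicle_Load, where their ranges overlapped, and in both DEX groups it lay below Fam20c without overlap.

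**Figure D1:**
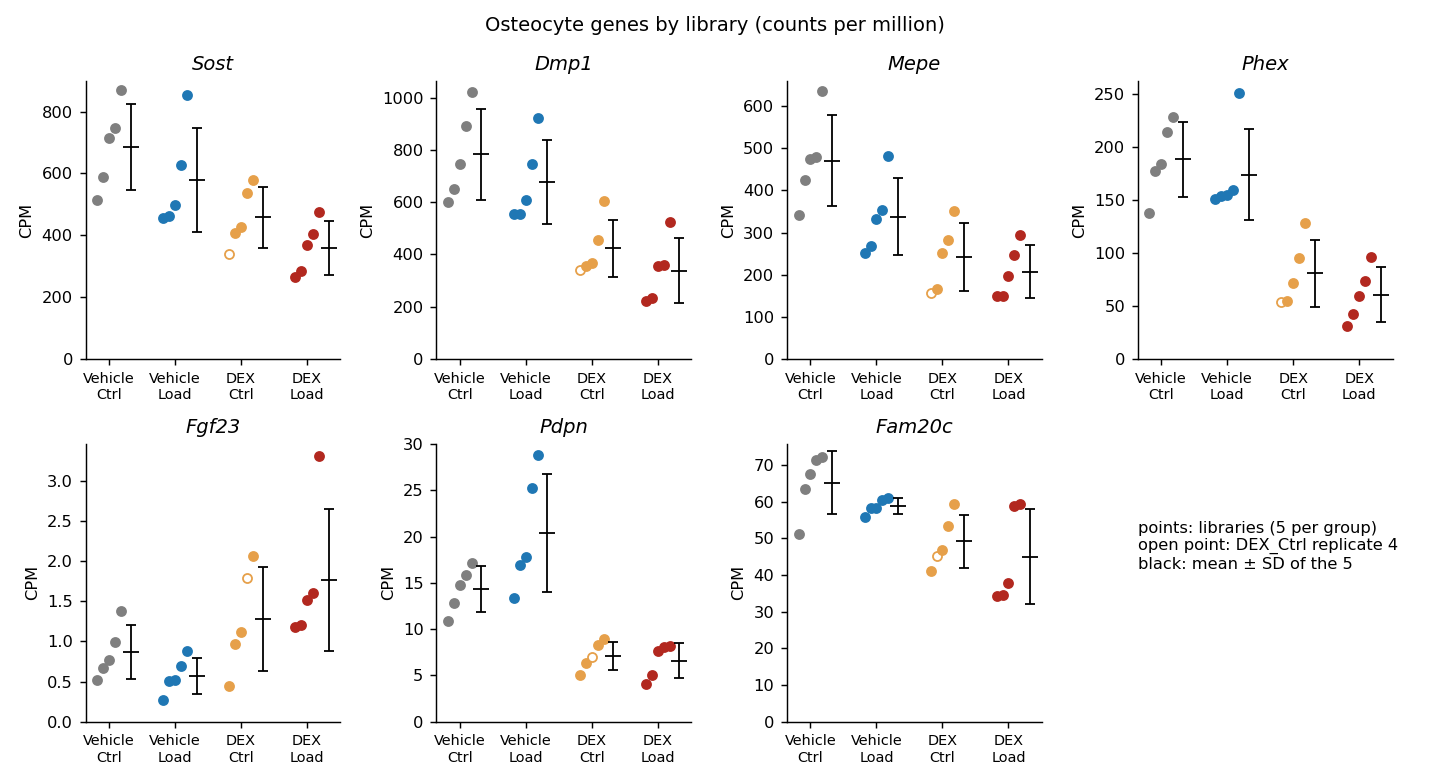
CPM of each osteocyte gene (vertical axis, from 0) in the 4 groups, with a point per library, an open point for DEX_Ctrl replicate 4, and the mean ± SD of the 5 libraries in black. Phex in DEX bone (30.7 to 128 CPM) lay below every vehicle library (138 to 251 CPM), as did Pdpn, whereas Fgf23 lay higher in DEX_Load than in Vehicle_Load.

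The first question was what DEX did to the osteocyte genes in loaded bone. Of the 7 members, 4 were lower in DEX_Load than in Vehicle_Load (Sost, Dmp1, Phex and Pdpn), and Mepe and Fam20c did not pass an adjusted p of 0.05 in edgeR's quasi-likelihood F test. Fgf23 was called higher, but it passed the filter on low counts through the DEX_Load libraries alone, so that call is given as a value only. The median log2 fold change of the 7 was -0.66, against 0.00402 over all 19780 genes tested, of which 21.3% were called, 8.35% lower and 12.9% higher. For 3 members (Dmp1, Phex and Pdpn) every DEX_Load library lay below every Vehicle_Load library, as for 8.85% of all genes tested, and for Fgf23 every DEX_Load library lay above, as for 7.66%. Without DEX_Load replicate 4, Dmp1, Phex and Pdpn were still called and Sost and Fgf23 were not, and 3018 of all the genes were called where 4206 had been. With the stray receptor signal as a covariate none of the 7 was called, with a median log2 fold change of -0.36, and 30 of all the genes tested were; the stray signal did not overlap between the 2 groups (227.7 to 885.2 CPM in Vehicle_Load and 1062 to 8611 in DEX_Load), so its share and that of the drug cannot be told apart here.

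In unloaded bone, 3 of the 6 members tested were lower in DEX_Ctrl than in Vehicle_Ctrl (Dmp1, Phex and Pdpn) and none was higher, against 6.84% called over all 19738 genes tested, 3.99% lower and 2.86% higher. The median log2 fold change of the 6 was -0.82, against 0.03 over all genes. Fgf23 had too few counts to enter this test. Phex and Pdpn did not overlap between the groups, as for 6.4% of all genes on the lower side and 4.45% on the higher. With the receptor signal as a covariate 3 members were again called, this time Mepe, Phex and Pdpn, along with 2591 of all the genes tested where 1351 were called without it. The calls depended on DEX_Ctrl replicate 3: without it 129 of all the genes were called and none of the members, with log2 fold changes of -1.025 for Phex (adjusted p = 0.0851) and -1.09 for Pdpn (adjusted p = 0.0529), whereas adding DEX_Ctrl replicate 4 raised the number called to 5 members and to 2922 of all the genes.

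**Figure D2:**
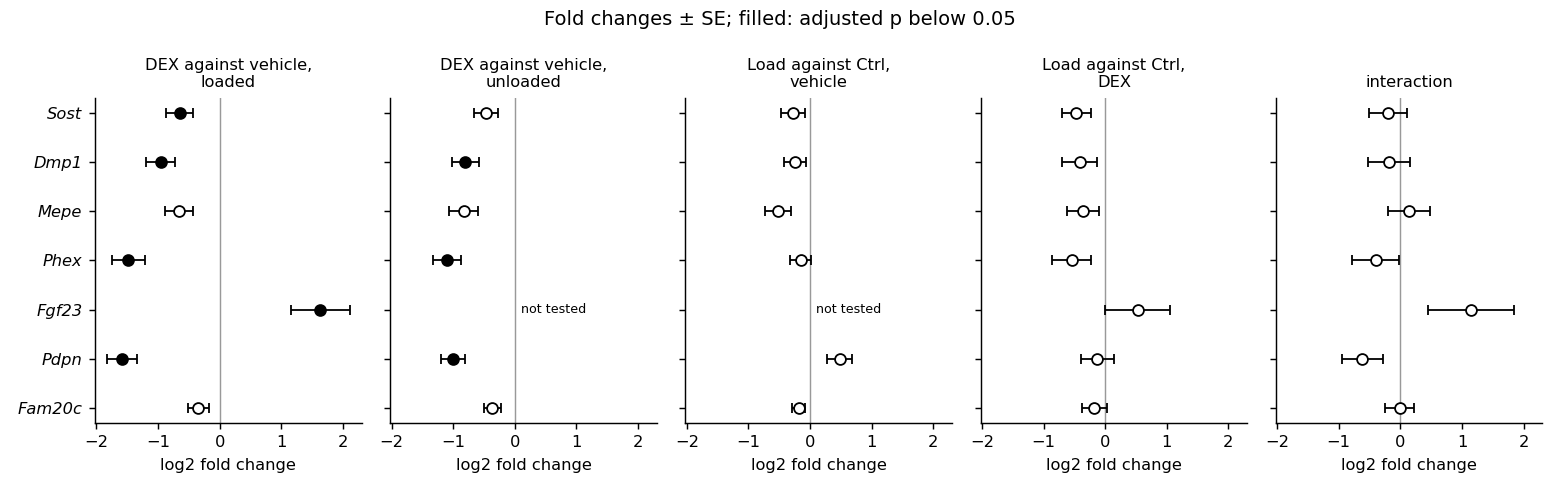
Log2 fold change (horizontal axis) ± SE of each osteocyte gene in 5 comparisons, from edgeR. Filled points have an adjusted p below 0.05; these lie in the 2 DEX comparisons alone, and in the interaction, which is the loading response under DEX minus that in vehicle, no point is filled.

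Sost encodes sclerostin. In Vehicle_Load its level was 456, 461, 499, 626 and 852 CPM, and in DEX_Load 264, 284, 368, 405 and 475 CPM. The 2 lowest Vehicle_Load libraries were below the highest DEX_Load library, so the groups overlapped. The log2 fold change was -0.65 (SE 0.217, adjusted p = 0.0499), on the edge of the threshold, and it was -0.56 without DEX_Load replicate 4 (adjusted p = 0.0773). In unloaded bone Sost stood at 514 to 868 CPM in Vehicle_Ctrl and at 340.1 to 579.6 CPM in DEX_Ctrl, a log2 fold change of -0.48 (SE 0.1955, adjusted p = 0.158) that did not pass the test.

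Dmp1 and Mepe belong to the SIBLING family, acidic phosphoproteins secreted into bone matrix, where Dmp1 promotes mineralization. Dmp1 measured 554, 554, 608, 747 and 924 CPM in Vehicle_Load and 220.2, 232, 354, 361 and 524 CPM in DEX_Load. The highest DEX library was thus just below the lowest vehicle library. The level was 1.945-fold lower under DEX (log2 fold change -0.96, SE 0.242, adjusted p = 0.0177). In unloaded bone Dmp1 read 599.9, 651, 747, 893 and 1023 CPM in Vehicle_Ctrl and 339, 356, 367, 454 and 603 CPM in DEX_Ctrl, and the fall was similar in size (-0.80, SE 0.215, adjusted p = 0.0442). There the groups met, since DEX_Ctrl replicate 2 lay above the lowest vehicle library.

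Mepe, which is thought to restrain mineralization through a peptide released from it, ran from 252 to 482 CPM in Vehicle_Load and from 149 to 293 CPM in DEX_Load. Its log2 fold change was -0.66 (SE 0.228) with an adjusted p of 0.054 in edgeR's test. In unloaded bone it ran from 341 to 635 CPM in vehicle and from 157 to 350.1 CPM under DEX, with a log2 fold change of -0.83 (SE 0.233, adjusted p = 0.0517). Mepe was therefore just outside the threshold in both limbs.

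Phex encodes a membrane endopeptidase whose loss causes X-linked hypophosphatemia with high Fgf23. Its level was 151, 153, 155, 159.5 and 251 CPM in Vehicle_Load and 30.7, 42.2, 59.5, 73.3 and 96.6 CPM in DEX_Load. Every DEX library was below every vehicle library, and the lowest was DEX_Load replicate 4. Phex was 2.795-fold lower under DEX (log2 fold change -1.48, SE 0.264, adjusted p = 0.0043), and the log2 fold change was -1.33 without that library (adjusted p = 0.00488). In unloaded bone it read 138, 177, 184, 214 and 228 CPM in Vehicle_Ctrl and 54.1, 54.8, 71.4, 95.05 and 128 CPM in DEX_Ctrl. Here too the groups did not overlap, and the log2 fold change was -1.10 (SE 0.229, adjusted p = 0.019).

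Fgf23 encodes the hormone that makes the kidney excrete phosphate, and it was close to the limit of detection, with 3 to 22 counts per library. In Vehicle_Load it was 0.273, 0.501, 0.517, 0.69 and 0.879 CPM, and in DEX_Load 1.18, 1.21, 1.52, 1.60 and 3.31 CPM. All DEX_Load libraries were above all Vehicle_Load libraries, and the log2 fold change was 1.63 (SE 0.478, adjusted p = 0.0305). The gene entered this test through the group where it is high, with 9 to 21 counts in DEX_Load against 3 to 9 in Vehicle_Load, and it was filtered out of the loading comparison in vehicle and of the DEX comparison in unloaded bone. The highest value belonged to DEX_Load replicate 4, which also had the most stray receptor signal (8611 CPM). Without it the log2 fold change was 1.28 (adjusted p = 0.0619), and with receptor signal as a covariate 0.74 (adjusted p = 0.705), so the call was lost in each case. In unloaded bone Fgf23 read 0.524 to 1.38 CPM in Vehicle_Ctrl and 0.451 to 2.06 CPM in DEX_Ctrl, and the groups overlapped. There the 2 highest values, 1.79 and 2.06 CPM, came from libraries with receptor signal of 1572 and 788.6 CPM. Receptor signal in DEX_Ctrl ran from 788.6 to 3161 CPM, and Fgf23 had 4 to 22 counts. The part of stray signal in the Fgf23 values of unloaded bone was not tested.

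**Figure D3:**
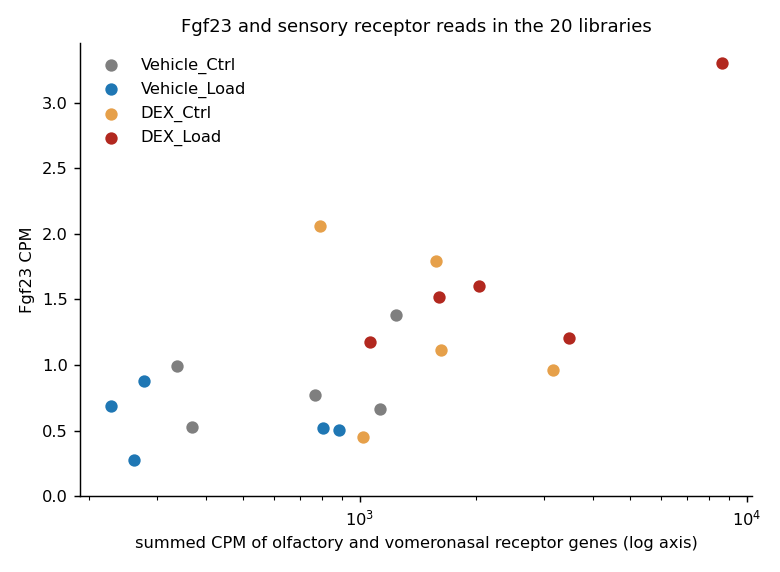
Fgf23 CPM (vertical axis) against the summed CPM of 1731 olfactory and vomeronasal receptor genes (horizontal log axis) in the 20 libraries, colored by group. DEX_Load replicate 4 has the highest value on both axes (3.31 and 8611 CPM), and the Vehicle_Load libraries have 0.273 to 0.879 CPM of Fgf23.

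Pdpn encodes podoplanin, a membrane glycoprotein of young osteocytes that is needed for their dendrites to lengthen, and that lymphatic vessels and marrow stroma also make. It was 13.4, 16.9, 17.9, 25.2 and 28.8 CPM in Vehicle_Load and 4.12, 5.04, 7.65, 8.03 and 8.23 CPM in DEX_Load. The groups lay well apart, and Pdpn was 2.99-fold lower (log2 fold change -1.58, SE 0.245, adjusted p = 0.00224). In unloaded bone it was 10.9, 12.9, 14.8, 15.8 and 17.2 CPM in Vehicle_Ctrl and 5.06, 6.31, 6.96, 8.28 and 8.93 CPM in DEX_Ctrl. The groups again did not overlap, and the log2 fold change was -0.999 (SE 0.197, adjusted p = 0.016). Of 5 genes of lymphatic vessels and reticular cells (Lyve1, Prox1, Flt4, Ccl21a and Ccl19), none was called in either direction in either limb. Their log2 fold changes went both ways, with 3 above and 2 below 0 in each limb. Their summed level was 57.4 to 85.2 CPM in Vehicle_Load and 64.7 to 88.8 CPM in DEX_Load. In unloaded bone it was 41.05 to 68.8 CPM in Vehicle_Ctrl and 55.4 to 89.1 CPM in DEX_Ctrl. Which cells carried the Pdpn values was not tested.

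Fam20c encodes the secretory pathway kinase that phosphorylates the SIBLING proteins and Fgf23. It had the smallest fold change of the members tested in both limbs. Its level was 55.8 to 61.0 CPM in Vehicle_Load and 34.3 to 59.5 CPM in DEX_Load. Of the DEX_Load libraries, 2 stood at vehicle level (58.8 and 59.5 CPM) and 3 between 34.3 and 37.9 CPM. The log2 fold change was -0.34 (SE 0.165, adjusted p = 0.145) in loaded bone and -0.37 (SE 0.141, adjusted p = 0.134) in unloaded bone, and neither passed the test. It passed in 2 of 20 alternatives in loaded bone and in none in unloaded bone.

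The second question was whether loading changed these genes. In vehicle-treated mice none of the 6 members tested passed, as for 0% of 17982 genes, while 9.86% of all genes had an unadjusted p under 0.05 and DESeq2's Wald test called 143 genes, none of them a member. Mepe had a log2 fold change of -0.52 between Vehicle_Load and Vehicle_Ctrl (SE 0.21, adjusted p = 0.472) and Pdpn one of 0.48 (SE 0.204, adjusted p = 0.483), and these 2 alone had an unadjusted p under 0.05 (0.0286 and 0.0352). The Pdpn libraries overlapped, with Vehicle_Load replicate 2 at 13.4 CPM and the highest Vehicle_Ctrl library at 17.2 CPM. For Sost the log2 fold change was -0.28, with an approximate 95% interval of -0.67 to 0.11, so a change within that range could not be resolved at this spread. Dmp1 (-0.24), Phex (-0.15) and Fam20c (-0.18) had smaller values in the same direction. Fgf23 had too few counts to be tested, at 0.524 to 1.38 CPM in Vehicle_Ctrl and 0.273 to 0.879 CPM in Vehicle_Load.

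Under DEX none of the 7 members passed between DEX_Load and DEX_Ctrl, as for 0% of 22541 genes by edgeR, with 4.25% of genes at an unadjusted p under 0.05 and no gene called by DESeq2. Sost had a log2 fold change of -0.47 (95% interval -0.94 to 0.00065), Phex -0.54 (-1.16 to 0.0812), Dmp1 -0.41 and Mepe -0.36. Pdpn was at -0.13 and Fam20c at -0.18, while Fgf23 was at 0.53 with an interval of -0.50 to 1.56. No member had groups that did not overlap between Load and Ctrl in either treatment, as 0.701% of genes did on the higher and 0.628% on the lower side in vehicle, and 0.652% and 0.594% under DEX.

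Whether the loading response differed between treatments was tested directly by the interaction term. None of the 7 members passed, as for 0% of 23653 genes by edgeR, with 12.1% at an unadjusted p under 0.05 and 51 genes called by DESeq2. The largest values were 1.14 for Fgf23 (95% interval -0.23 to 2.51, adjusted p = 0.445) and -0.62 for Pdpn (-1.27 to 0.0353, adjusted p = 0.427). For Pdpn, this sets a log2 fold change of 0.48 with loading in vehicle beside -0.13 under DEX, neither of them called. Phex had -0.40 (-1.15 to 0.34, adjusted p = 0.578), Sost -0.20, Dmp1 -0.18, Mepe 0.14 and Fam20c -0.011, and the last 4 changed sign in at least 1 alternative. The loading and DEX comparisons share libraries, so their values are given side by side and not compared further.

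Other genes with known ties to osteocytes were followed from lists. Of 9 further osteocyte genes, 5 were lower in DEX_Load than in Vehicle_Load and 4 in DEX_Ctrl than in Vehicle_Ctrl, none was higher, and the median log2 fold changes were -0.58 and -0.74. Gja1, the gap junction protein that joins osteocyte dendrites, had log2 fold changes of -1.43 (SE 0.207, adjusted p = 0.00156) in loaded and -1.19 (SE 0.259, adjusted p = 0.022) in unloaded bone. Dkk1, a second secreted Wnt inhibitor, had -0.85 (adjusted p = 0.0217) and -0.74 (adjusted p = 0.022). Fbln7, a matrix protein, had -0.74 in both limbs (adjusted p = 0.0155 and 0.0175), and Ptprz1, a receptor phosphatase, had -0.84 and -0.85 (adjusted p = 0.0226 and 0.0375). With receptor signal as a covariate none of the 9 was called in loaded bone, where their median was -0.57, while in unloaded bone 3 were called lower and 1 higher, with a median of -0.79.

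Among 11 genes of phosphate handling and mineralization, 7 were lower in each limb and none was higher, with medians of -0.47 and -0.64. Alpl, the alkaline phosphatase that breaks down the mineralization inhibitor pyrophosphate, had -1.78 (SE 0.234, adjusted p = 0.000806) in loaded and -1.64 (SE 0.282, adjusted p = 0.0104) in unloaded bone. Enpp1, which makes that inhibitor, was lower as well (-0.99 and -0.71, adjusted p = 0.00296 and 0.0164), as was Phospho1, a phosphatase of matrix vesicles (-1.34 and -1.38, adjusted p = 0.0092 and 0.00591). Vdr, the vitamin D receptor, had -0.94 (adjusted p = 0.00234) in loaded bone, and Ank, the symbol the table uses for the pyrophosphate exporter, had -0.70 (adjusted p = 0.0149) in unloaded bone. Genes with opposite known effects on mineral thus moved the same way. With receptor signal as a covariate none of the 11 was called in loaded bone, where their median was -0.29, and in unloaded bone 4 were lower and 1 was higher.

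Of 10 genes around sclerostin and Wnt, 9 were tested, and 4 were lower in loaded and 2 in unloaded bone, with medians of -0.55 and -0.34. In loaded bone these were the sclerostin co-receptor Lrp6 (-0.615, adjusted p = 0.0286), beta-catenin, Ctnnb1 (-0.80, adjusted p = 0.0183), and the transcription factors of the pathway Lef1 (-1.11, adjusted p = 0.00367) and Tcf7 (-1.24, adjusted p = 0.00763). In unloaded bone they were Tcf7 (-0.78, adjusted p = 0.0474) and Mef2c (-1.17, adjusted p = 0.0103), a transcription factor known to drive Sost through a distant enhancer. Mef2c was not called in loaded bone (-0.47, adjusted p = 0.06). Which cells carried the Mef2c values, and whether they bear on Sost here, was not tested. Axin2, a feedback target of Wnt signaling, was at 0.22 in loaded and -0.22 in unloaded bone and was not called. Lef1 and Tcf7 are also genes of lymphocytes. Of 8 B cell markers, 7 were lower in loaded and 3 in unloaded bone, and no list of T cell markers was used. The part of lymphocytes in the Lef1 and Tcf7 values was not tested. With the covariate none of the 9 was called in loaded bone, where their median was -0.083, and 1 was lower in unloaded bone.

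Of 5 relatives of the SIBLING and Fam20 members, Ibsp (-0.87, adjusted p = 0.019) and Fam20a (-0.64, adjusted p = 0.0116) were lower in DEX_Load, Dspp was higher (2.74, SE 0.704, adjusted p = 0.0189; 0 to 1.502 CPM in Vehicle_Load and 2.35 to 9.76 CPM in DEX_Load), and Spp1 (-0.38) and Fam20b (-0.31) were not called. Dspp, like Fgf23, passed the filter on low counts through DEX_Load, the group where it is high, and it was filtered out of the loading comparison in vehicle. None of the 5 was called in unloaded bone, nor in loaded bone with the covariate.

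**Figure D4:**
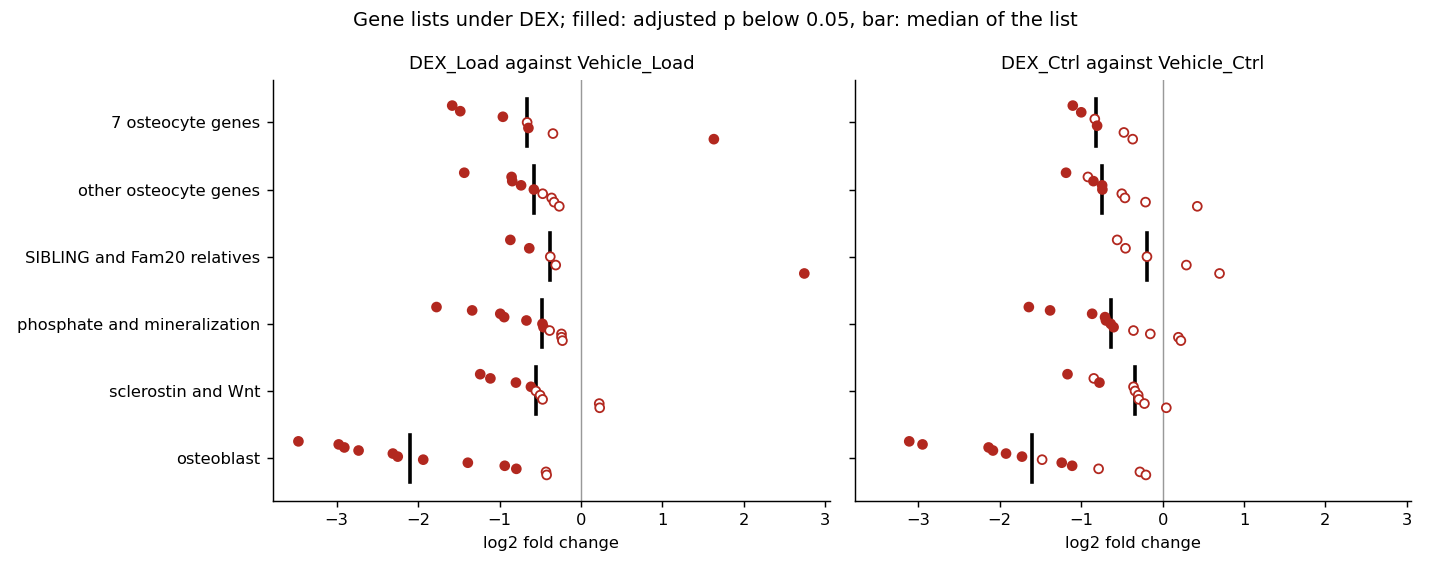
Log2 fold change (horizontal axis) of each gene in 6 lists under DEX in loaded (left) and unloaded (right) bone, with filled points for an adjusted p below 0.05 and a bar at each list's median. The median of the osteocyte genes (-0.66 and -0.82) lies nearer to 0 than that of the osteoblast genes (-2.095 and -1.60). The osteocyte median is over 7 genes in loaded bone and over 6 in unloaded bone, where Fgf23 was not tested. The osteocyte medians of the 2 limbs are thus over unlike sets of genes.

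The median of the osteoblast genes was further below 0 than that of the osteocyte genes, a difference that was not tested. Of 12 osteoblast genes, 10 were lower in loaded and 8 in unloaded bone, with medians of -2.095 and -1.60. Bglap, which encodes osteocalcin, had log2 fold changes of -3.47 and -2.95 (adjusted p = 0.00252 and 0.012), and its near copy Bglap2, with which it can share reads, had -2.98 and -3.11 (adjusted p = 0.00234 and 0.0144). The matrix proteins Postn (-2.25 and -2.08, adjusted p = 0.000755 and 0.0162) and Sparc (-2.31 and -1.73, adjusted p = 0.00203 and 0.024) were lower in both limbs. Col1a1, the main chain of bone collagen, had -2.91 and -2.14 (adjusted p = 0.00303 and 0.0418). The summed osteoblast level was 67187 to 100377 CPM in Vehicle_Load and 4607 to 23862 CPM in DEX_Load, of which Col1a1 made up 60.9% and Col1a2 30.0% on average over all libraries. Against this sum, every member was higher under DEX in loaded bone, by a log2 ratio of 1.45 for Pdpn, 1.47 for Phex, 2.03 for Dmp1, 2.36 for Mepe, 2.39 for Sost, 2.64 for Fam20c and 4.68 for Fgf23, and none of the 7 ratios overlapped between the groups. Against the same full sum 95.3% of 22659 genes were higher without overlap, so the count is not particular to the osteocyte genes. Without Col1a1 and Col1a2 in the sum the differences were 0.73 for Pdpn, 0.75 for Phex, 1.31 for Dmp1, 1.64 for Mepe, 1.68 for Sost and 1.92 for Fam20c. In unloaded bone, with DEX_Ctrl replicate 4 left out, the differences in the ratio ran from 1.06 to 2.51. The groups overlapped for all 7, while 59% of all genes did not overlap.

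Markers of other tissues in the bone moved as well. Neutrophil genes were higher under DEX (7 of 8 in loaded and 6 of 8 in unloaded bone), with sums of 4237 to 6238 CPM in Vehicle_Load and 7134 to 17040 in DEX_Load. Chondrocyte genes were lower in loaded bone (8 of 9, from 758 to 2520 CPM in Vehicle_Load to 138 to 482 in DEX_Load) and none was called in unloaded bone. Genes of tendon and periosteum were lower in 4 of 6 and 2 of 6 cases. Skeletal muscle genes summed to 4455 to 22364 CPM in Vehicle_Load and 8748 to 24943 in DEX_Load, with 1 of 9 higher, and to 9320 to 42745 CPM in Vehicle_Ctrl and 1662 to 19991 in DEX_Ctrl, with 1 of 9 lower. Of 8 osteoclast genes, 2 were lower in loaded and 1 was higher in unloaded bone, of 6 adipocyte genes 2 were higher in each, and of 8 erythroid genes none was called. Without DEX_Load replicate 4 no osteoclast, adipocyte or skeletal muscle gene was called in loaded bone. No gene of these lists was at 0 in every library of a group, and the part of these shifts in the values of the osteocyte genes was not tested. With receptor signal as a covariate 1 neutrophil gene was the only gene of all these lists, osteoblast and chondrocyte genes included, that was called in loaded bone, while in unloaded bone 7 of 12 osteoblast genes were lower and 6 of 8 neutrophil genes were higher. The medians in loaded bone under that covariate were -3.18 for chondrocyte genes (-3.23 without it), 1.125 for neutrophil genes (1.02 without it) and -1.56 for osteoblast genes. In the loading comparisons and the interaction edgeR called no gene of any kind, so those tests say nothing about the lists in particular.

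Likeness to other genes was described by correlation across the 20 libraries, which share the group differences given above, so these values carry no test. Among 16524 protein-coding genes, the one most like Dmp1 in log2 CPM was Phex (Pearson's r = 0.971), followed by Ptprz1 and Sema5a (both 0.968). Phex was most like Col24a1 (0.983), Ccn4 (0.981) and Sdc3 (0.98), and Dmp1 ranked 7 for it. The genes most like Sost were Sema6d (0.921), Ackr3 (0.917) and Tgfb2 (0.914), with Dmp1 and Mepe at ranks 8 and 9 (both 0.895). Mepe was most like Cadm1 (0.961), Dkk1 (0.956) and Usp53 (0.952). Fam20c was most like Ctnnd1 (0.904), Zfhx4 (0.899) and Nrbp2 (0.895), with Dmp1 at rank 51. Pdpn stood with the matrix genes Col5a1 (0.967) and Mmp2 (0.961) and with Ptgfrn (0.957), and the nearest member, Phex, had rank 679 (0.806). Fgf23 was most like Acpp (0.891), Lct (0.883) and Slc26a8 (0.85), and its correlation with the other members was negative, from -0.723 with Phex to -0.477 with Sost.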

How the data were processed

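Total RNA of 20 mouse tibiae was made into libraries with a stranded, low-input kit and sequenced by the authors. It was counted with STAR 2.7.10a and RSEM 1.2.28 on GRCm38, as the submitters' processing notes name them. The deposited values are expected counts per gene, which are estimated and not scaled for depth; the strand setting of the counting is not given in the sources used here. Of each library's values 10.6% to 14.0% were not whole, so counts were rounded. Depth was 4641437 to 13032018 counts per library. Intervals on fold changes are approximate and use the standard error alone.

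Comparisons used R 4.3.3 and edgeR 4.0.16 on the groups compared: filterByExpr, TMM, glmQLFit and glmQLFTest, with Benjamini-Hochberg adjustment over all genes tested and calls at an adjusted p below 0.05. The SE of a log2 fold change was taken as its size over the square root of F. Levels are CPM after TMM over the 22659 genes kept in all 20 libraries, and per kilobase values use the union of GENCODE M21 exons. DEX_Ctrl replicate 4 was left out of the tests, of the shares of genes without overlap and of the ratios to the osteoblast sum. Vehicle libraries numbered 6 in the table match no sample label and are called unnumbered. Alternatives were DESeq2 1.42.0, other scalings and filters, all groups in 1 model, other sets of libraries, the replicate number as a block, a covariate of receptor signal and each library left out in turn. The block libraries without the block, and an osteoblast sum without Col1a1 and Col1a2, were added after seeing the data.

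All 7 members are named in every comparison. For other lists, the counts in each direction are given, with up to 4 genes past the threshold by smallest adjusted p. Spp1, Fam20b, Axin2, Col1a1, Per1 and Tsc22d3, and Mef2c in loaded bone, were named after their values were seen. For likeness, the 3 genes with the highest r are named among protein-coding genes, for members with a mean of at least 1 CPM and a prior count of 2. The members and all lists were chosen with earlier results of these data known.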

Additional observations from a re-analysis of the deposited data

Results flagged for a closer look

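In Vehicle_Load, replicate 2 held the highest Phex level, 251.0 CPM, with the other 4 libraries between 151.1 and 159.5 CPM. In DEX_Load, replicate 4 held the highest Fgf23 level, 3.307 CPM from 21 counts, with the other 4 between 1.176 and 1.603 CPM. In each case the gap to the nearest library, divided by the range of the group, exceeded Dixon's critical value of 0.71 for 5 samples. These were 2 of 28 sets of 5 libraries examined, and chance alone gives about 1 in 20. Vehicle_Load replicate 2 was also the highest of its group in Sost, Dmp1 and Mepe, and the lowest in Pdpn (13.4 CPM).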

How the results depend on the processing

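The number of members called under DEX in loaded bone was 5, of which 1 was Fgf23, given as a value only because it passed the low-count filter through DEX_Load alone. It was 3 with at least 10 counts in every library, 3 with the replicate block, 2 in the libraries of the block without the block, 3 without loaded DEX replicate 4 and 0 with the receptor covariate; leaving out 1 library at a time gave 3 to 7. Without Vehicle_Load replicate 1 or 4 or DEX_Load replicate 3 or 4 it was 3. Fgf23 was tested in 17 of the 20 alternatives in loaded bone, so the counts of the others, such as that with at least 10 counts, are without it. In unloaded bone the number was 3, and it was 1 with library totals, 0 with the replicate block, 0 in the same libraries without the block and 5 with all 20 libraries; leaving out 1 library gave 0 (without DEX_Ctrl replicate 3) to 4. The numbers were not taken to pair libraries, because same-numbered libraries had correlations of -0.301 to 0.357 between their deviations and 2 of 9 were nearest to their own number. The block changed no call in the loading comparisons or the interaction. No member changed direction under DEX in any alternative. Phex was called in 19 of 20 alternatives in loaded and 16 of 19 in unloaded bone, Pdpn in 19 and 15, Dmp1 in 18 and 8, Mepe in 5 and 10, Sost in 5 and 1, Fam20c in 2 and 0, and Fgf23 in 8 of 17 in loaded bone. Scaling by library totals moved the median of all genes under DEX to 0.28 in loaded and 0.32 in unloaded bone, and turned the calls from 2554 higher and 1652 lower to 4124 and 718, and from 564 and 787 to 2982 and 341. DESeq2 called 5651 and 2374 genes in these comparisons, against 4206 and 1351.

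Values near 0 changed sign, and none of these was called. The loading response of Pdpn under DEX was 0.0035 without DEX_Load replicate 5, the top of a range from -0.25 when leaving out 1 library. The interaction of Fam20c was 0.0058 with DESeq2, 0.0051 with its size factors, 0.11 with at least 10 counts, 0.037 in the block libraries without the block, 0.024 with all 20 libraries, 0.12 with unloaded in place of loaded DEX replicate 4, 0.078 without both and 0.051 with the covariate, and -0.13 to 0.078 leaving out 1 library. That of Dmp1 was -0.39 to -0.018 leaving out 1 library, but 0.022 with unloaded in place of loaded DEX replicate 4 and 0.11 with the covariate, that of Sost 0.0073 with the covariate, and that of Mepe -0.057 to 0.30 leaving out 1 library and 0.37 with unloaded in place of loaded DEX replicate 4. The Fam20c level in Vehicle_Load was 53.8 CPM on library totals and 55.7 CPM with factors from genes of at least 10 counts. With Col1a1 and Col1a2 left out of the osteoblast sum, the ratios under DEX in loaded bone differed by 1.68 (Sost), 1.31 (Dmp1), 1.64 (Mepe), 0.75 (Phex), 0.73 (Pdpn) and 1.92 (Fam20c). The cause of these shifts was not tested. Fgf23, at 3 to 22 counts a library, is the member whose depth limits it most.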
